A study of Canis lupus familiaris with 8 samples.

Results

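The ribbon synapse of photoreceptors and bipolar cells was examined through 10 genes of its presynaptic release site, chosen by symbol for their known place there: CACNA1F, CACNA2D4, CABP4, CTBP2, BSN, PCLO, RIMS1, RIMS2, UNC13A and UNC13B. Of these, 8 had a row among the 12824 genes of the deposited expression table. CACNA2D4 and PCLO were not analysed here. The 8 measured genes were all well above the low end of the table, with 1180 to 36050 reads per gene and library at the depth estimated from the table.

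Total RNA of retina from male wild-type Beagles aged 31 weeks was sequenced after 2 preparations of the eye, with 4 libraries each. In the fresh-frozen group, quadrants of right eyecups were frozen in embedding medium with no fixation and no cryoprotection. In the PFA-fixed group, left eyes went through paraformaldehyde (PFA), a crosslinking fixative, at 4% for 3 h and then at 2% for 24 h at 4 °C, followed by 15% and 30% sucrose and freezing in the same medium. RNA came from a micro column kit in the fresh-frozen group, and in the fixed group from a kit for paraffin-embedded tissue with 18 h of proteinase K at 56 °C. Preparation, side of the eye and extraction kit changed together and cannot be told apart. Biological replicates are stated, but no label says which eyes belonged to the same dog, and the p-values rest on the spread among 8 libraries only.

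Photoreceptors and bipolar cells release glutamate continuously, and their terminals hold a synaptic ribbon, a plate that tethers vesicles above the release site. Calcium enters through L-type channels clustered under the ribbon, and a scaffold of large proteins holds channels, ribbon and vesicles together at the active zone. Priming proteins then bring docked vesicles to a state in which calcium can trigger their fusion. Inherited defects of several of these components disturb transmission from photoreceptors to bipolar cells.

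Of the 8 measured genes, 6 rose in PFA-fixed retina and none fell (limma, adjusted p under 0.05). Over all 12824 genes, 68.7% were called in either direction, 33.9% as higher and 34.7% as lower. The median change of the 8 genes was 0.82 on the log2 scale, against -0.02 for all genes. The genes were chosen with earlier results of these data known, so these contrasts are descriptive only. Among the rises were the genes of the calcium channel and its regulator, the scaffold genes BSN and RIMS2, and both priming factor genes. CTBP2 and the scaffold gene RIMS1 were not called. All values below are log2 CPM, the log2 of read counts scaled to the size of the library, and each change is PFA-fixed minus fresh-frozen. Since these values are not divided by transcript length, levels are compared between groups for the same gene and not between genes.

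CACNA1F encodes the pore-forming subunit of Cav1.4, the L-type calcium channel of photoreceptor terminals. Its level was 7.93, 8.12, 7.96 and 7.83 log2 CPM in fresh-frozen replicates 1 to 4. In PFA-fixed replicates 1 to 4 it was 9.53, 9.64, 9.42 and 9.52 log2 CPM. Every fixed library was more than 1 log2 unit above every fresh-frozen one. The change was 1.57 ± 0.07 on the log2 scale (SE; limma adjusted p = 8.14e-09), a 2.97-fold rise. It was the largest change among the 8 genes, and 96.2% of all genes had a lower one.

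CABP4 encodes a calcium-binding protein that binds Cav1.4 and lets it open at more negative voltages. Fresh-frozen replicates 1 to 4 had 5.91, 6.43, 6.29 and 6.30 log2 CPM. PFA-fixed replicates 1 to 4 had 7.20, 7.48, 7.38 and 7.31 log2 CPM. The groups did not overlap, and fresh-frozen replicate 1 lay below the other 3 libraries of its group. CABP4 rose by 1.11 ± 0.11 on the log2 scale (SE; limma adjusted p = 2.33e-06), which is 2.16-fold.

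CTBP2 is the gene of RIBEYE, the main protein of the ribbon, and also of a transcriptional corepressor made from another start site of the same gene. The table has 1 row for the gene, so the 2 products cannot be separated. Its level was 8.64, 8.82, 8.49 and 8.51 log2 CPM in fresh-frozen replicates 1 to 4, and 8.61, 8.79, 8.44 and 8.43 log2 CPM in PFA-fixed replicates 1 to 4. The groups overlapped over most of their range. The difference of -0.05 ± 0.10 on the log2 scale was not called (SE; limma adjusted p = 0.683), with a 95% confidence interval from -0.26 to 0.16. With the rod and bipolar scalings described below, CTBP2 was called lower.

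BSN encodes bassoon, a giant cytomatrix protein that anchors the ribbon to the release site. Levels were 7.46, 7.27, 7.63 and 7.37 log2 CPM in fresh-frozen replicates 1 to 4. They were 7.92, 7.87, 7.84 and 7.92 log2 CPM in PFA-fixed replicates 1 to 4. The fixed libraries lay close together and above every fresh-frozen one. BSN rose by 0.45 ± 0.08 on the log2 scale (SE; limma adjusted p = 0.000213), which is 1.37-fold and the smallest of the 6 rises. This call ended with the rod and bipolar scalings (changes of 0.18 to 0.19).

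The paralogous RIM genes RIMS1 and RIMS2 encode scaffold proteins that bind the vesicle protein RAB3 and tether calcium channels at the active zone. RIMS2 was at 10.35, 10.48, 10.22 and 10.24 log2 CPM in fresh-frozen replicates 1 to 4. It was at 11.15, 11.17, 11.19 and 10.83 log2 CPM in PFA-fixed replicates 1 to 4. The groups did not overlap, although PFA-fixed replicate 4 was lower than the other 3 fixed libraries. RIMS2 rose by 0.76 ± 0.10 on the log2 scale (SE; limma adjusted p = 2.41e-05), which is 1.70-fold.

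RIMS1 did not share this rise. It was at 7.42, 7.58, 7.32 and 7.14 log2 CPM in fresh-frozen replicates 1 to 4, and at 6.89, 7.01, 7.48 and 6.68 log2 CPM in PFA-fixed replicates 1 to 4. Of the fixed libraries, 3 lay below every fresh-frozen one, and PFA-fixed replicate 3 lay within their range. The change of -0.36 ± 0.15 on the log2 scale narrowly missed the threshold (SE; limma adjusted p = 0.0505), with a 95% confidence interval from -0.68 to -0.03. Without PFA-fixed replicate 3, RIMS1 was called lower, with a change of -0.51 (limma adjusted p = 0.00213). Leaving out fresh-frozen replicate 4 gave a change of -0.43 that was called as well (limma adjusted p = 0.0335). Its adjusted p over the 8 fits that leave out 1 library ran from 0.00213 to 0.141.

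UNC13A and UNC13B encode the paralogous priming factors Munc13-1 and Munc13-2, which prepare the fusion machinery of docked vesicles. UNC13B was at 8.35, 8.53, 8.40 and 8.55 log2 CPM in fresh-frozen replicates 1 to 4. In PFA-fixed replicates 1 to 4 it was at 9.63, 9.68, 9.67 and 9.65 log2 CPM, the tightest group of any member (SD 0.022, n = 4). UNC13B rose by 1.21 ± 0.06 on the log2 scale (SE; limma adjusted p = 1.63e-08), which is 2.31-fold.

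UNC13A was more variable in fresh-frozen retina, with 6.08, 5.76, 6.61 and 6.42 log2 CPM in replicates 1 to 4 (SD 0.37, n = 4). PFA-fixed replicates 1 to 4 had 7.10, 6.94, 6.99 and 7.33 log2 CPM. The groups did not overlap, since the highest fresh-frozen library (6.61) lay below the lowest fixed one (6.94). UNC13A rose by 0.87 ± 0.16 on the log2 scale (SE; limma adjusted p = 0.000421), which is 1.83-fold.

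**Figure D1:**
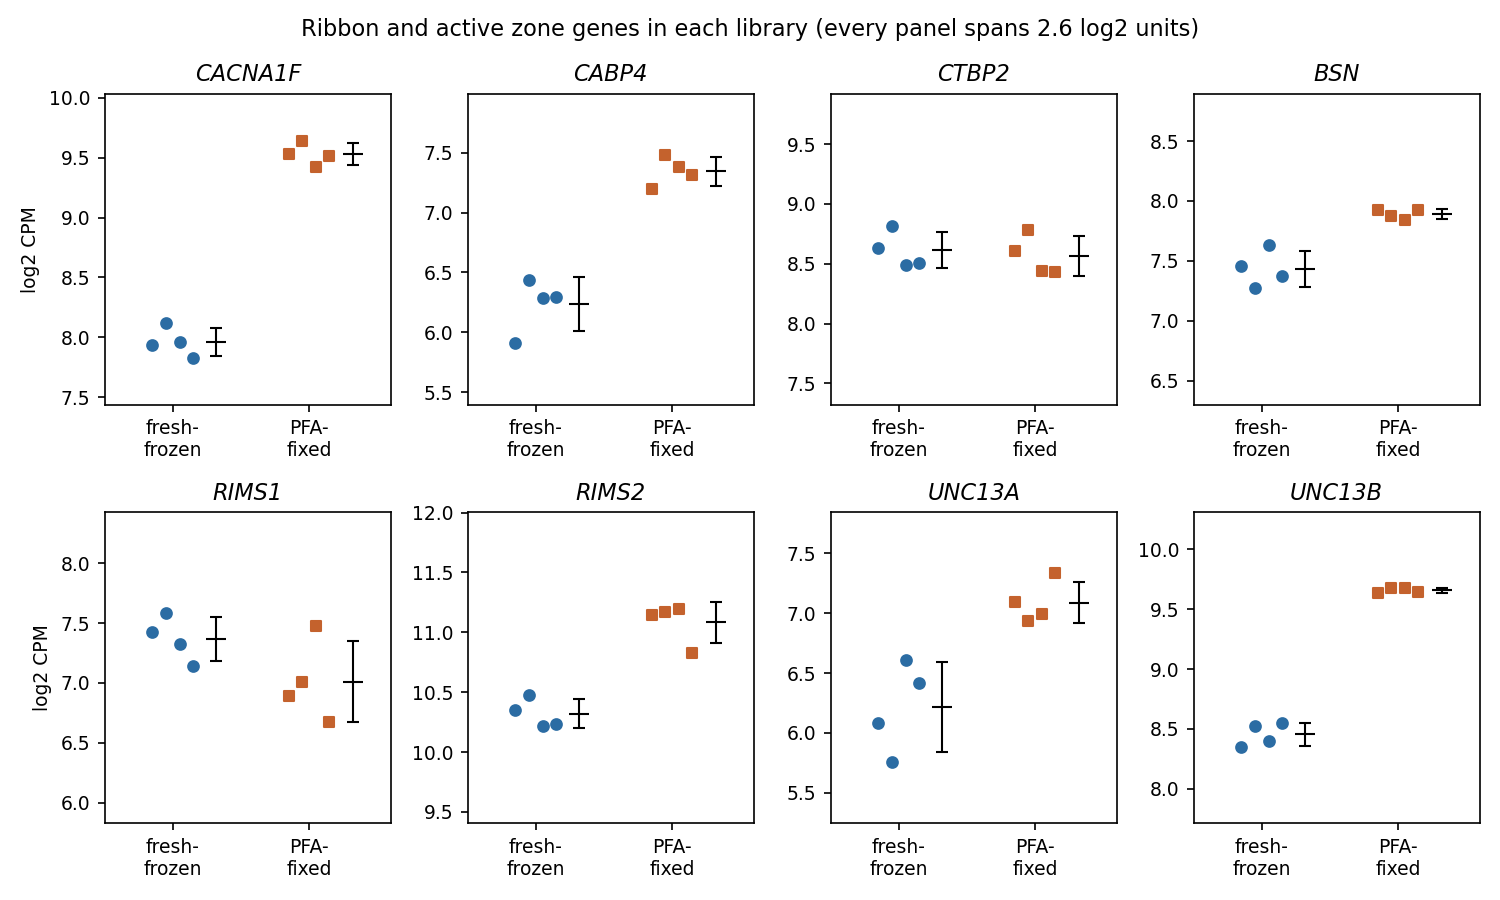
Level of each measured ribbon and active zone gene in log2 CPM (vertical axis) in the 4 fresh-frozen (circles) and 4 PFA-fixed (squares) libraries, in replicate order from left to right. Black bars show the group mean ± SD. All panels have the same span, and the groups are apart in 6 genes and overlap in CTBP2 and RIMS1.

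The groups did not overlap in 6 of the 8 genes, all higher in fixed libraries. Among all genes, 31.3% did not overlap with the fixed group higher, and 31.6% did not overlap with the fixed group lower. At least 2-fold rises were called for CACNA1F, UNC13B and CABP4, 3 of the 8 genes, against 10.6% of all genes. No library was high or low in all 8 genes. Averaged over the 8, the deviation of a library from its group mean lay between -0.06 (PFA-fixed replicate 4) and 0.05 (PFA-fixed replicate 2) on the log2 scale.

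A difference between 2 genes of the same library is not altered by a single scaling factor per library, although quantile normalization, which is not such a factor, can alter it. Of 5 such pairs planned, 3 had both genes measured. The level of such a difference also reflects transcript lengths. A length effect drops out of the change between groups only if it is equal in both groups, which was not tested. RIMS2 minus RIMS1 was 2.93, 2.90, 2.90 and 3.09 in fresh-frozen replicates 1 to 4, and 4.26, 4.16, 3.72 and 4.15 in PFA-fixed replicates 1 to 4, on the log2 scale. The groups were clearly apart, and the difference grew by 1.12 (exact two-sided permutation p = 0.0286, adjusted p = 0.0429 over 3 pairs). The smallest p that 70 assignments allow is 0.0286. The RIMS2 to RIMS1 ratio was thus 2.17-fold higher in fixed libraries.

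CACNA1F minus CABP4 was 2.02, 1.68, 1.67 and 1.53 in fresh-frozen replicates 1 to 4, and 2.34, 2.16, 2.04 and 2.20 in PFA-fixed replicates 1 to 4, on the log2 scale. The lowest fixed library was only just above the highest fresh-frozen one. The channel gene therefore gained 0.46 on its regulator (exact two-sided permutation p = 0.0286, adjusted p = 0.0429 over 3 pairs). Adjusted p-values of both pairs were 0.0857 without any 1 of the fixed libraries. The exact p of RIMS2 minus RIMS1 itself was 0.0286 in each of those tests, while that of CACNA1F minus CABP4 was 0.0571. With quantile normalization, an alternative added after seeing the data, the gains were 1.02 (exact permutation p = 0.0286) and 0.38 (exact permutation p = 0.0571), and the adjusted p was 0.0857 for both.

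UNC13B minus UNC13A was 2.26, 2.77, 1.79 and 2.13 in fresh-frozen replicates 1 to 4, and 2.54, 2.74, 2.68 and 2.32 in PFA-fixed replicates 1 to 4, on the log2 scale. These groups overlapped, and the change of 0.33 was not resolved from the spread (exact two-sided permutation p = 0.229, adjusted p = 0.229). Without single libraries this change ran from 0.18 (without fresh-frozen replicate 3) to 0.51 (without fresh-frozen replicate 2, exact permutation p = 0.0571), and it was 0.22 with quantile normalization. Both priming factor paralogues rose, and a difference in the size of their rises was not resolved with these libraries.

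**Figure D2:**
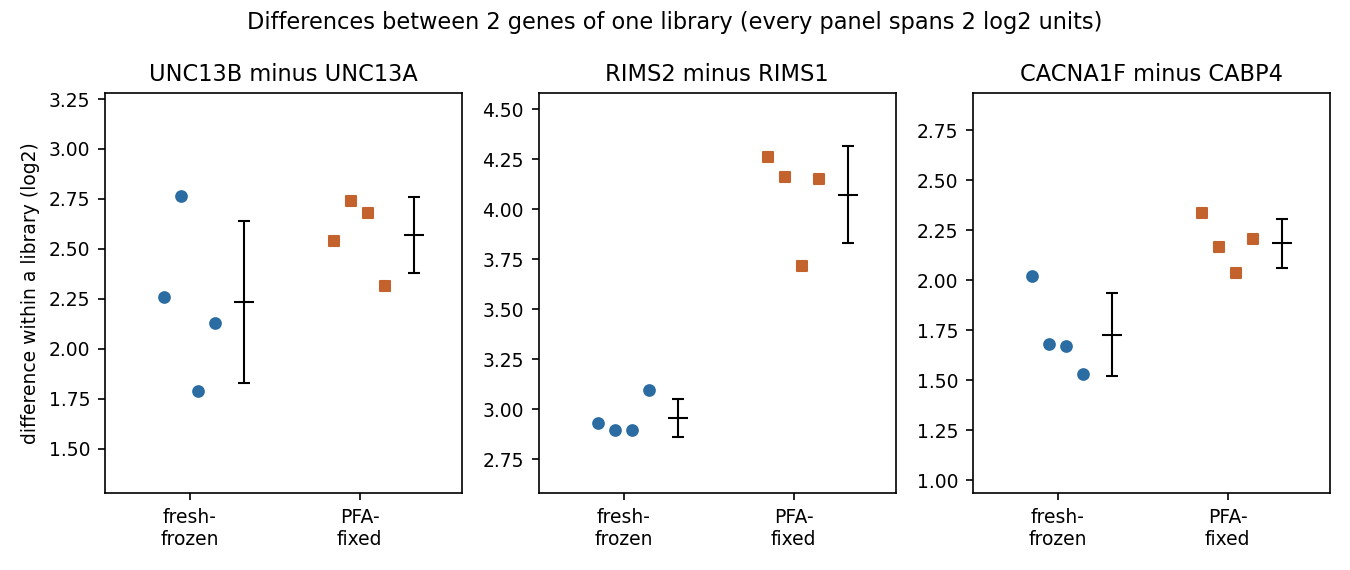
Difference in log2 CPM between 2 genes of the same library (vertical axis) for the 3 measured pairs, in fresh-frozen (circles) and PFA-fixed (squares) libraries, with the group mean ± SD in black. RIMS2 minus RIMS1 and CACNA1F minus CABP4 were higher in every fixed library, and UNC13B minus UNC13A overlapped.

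All 28 pairs of the 8 genes were compared in the same way, a choice made after the data were seen. Of these, 19 passed (exact two-sided permutation, adjusted p = 0.0421 for each over 28 pairs) and 9 did not. The 19 were the pairs whose groups did not overlap, and the 28 pairs reuse the same 8 genes. The share of pairs passing among all genes was not computed, so the count describes these genes only. In the order of change, from CACNA1F through UNC13B, CABP4, UNC13A, RIMS2, BSN and CTBP2 to RIMS1, only 1 of the 7 neighbouring steps passed. That step was CACNA1F over UNC13B, a difference in change of 0.36 on the log2 scale. CACNA1F gained 1.62 on CTBP2, the ribbon gene, and 1.93 on RIMS1, with no overlap between groups in either pair. UNC13B gained 1.25 on CTBP2 and RIMS2 gained 0.81 on it, also with no overlap. BSN gained 0.50 on CTBP2 (exact two-sided permutation p = 0.0571, adjusted p = 0.0727) and did not pass.

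Most markers of sclera and fibroblasts, pigment epithelium, vessels and microglia were far lower in fixed libraries. Markers of sclera and fibroblasts summed to 6714 to 9876 CPM in fresh-frozen and 27.2 to 44.4 CPM in fixed libraries, and all 7 fell, with DPT at the lowest value of the table in 2 fixed libraries. All 8 pigment epithelium markers fell as well, from sums of 2161 to 3254 CPM to 60.7 to 113 CPM. Of 8 vascular markers 7 fell (2173 to 2981 CPM against 667 to 727 CPM), and of 7 microglia markers 6 fell (113 to 150 CPM against 14.8 to 21.7 CPM). Their part in the changes of the synaptic genes was not tested. In bulk tissue, a change in the number of cells of a type and a change in RNA per cell cannot be told apart.

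Rods, cones and bipolar cells make ribbon synapses, and their markers were measured in both groups. Counts of marker calls with the deposited values are to be read against the 33.9% of all genes called higher and 34.7% called lower. All 15 rod markers were measured and summed to 34159 to 39743 CPM in fresh-frozen and 38501 to 42270 CPM in fixed libraries, with 8 higher, 3 lower and a median change of 0.27. Their changes ran from -0.26 (NRL) to 1.11 (PDE6B). With quantile normalization, 5 rod markers were higher and 5 lower, with a median change of -0.007, where 38.0% of all genes were called higher and 31.3% lower. The number of rod markers called lower depended on single libraries and was 0 to 3 when 1 was left out, with 0 without PFA-fixed replicate 1 and 1 without fresh-frozen replicate 2, PFA-fixed replicate 2 or PFA-fixed replicate 4. All 13 bipolar markers were measured, summed to 1885 to 2290 CPM against 2899 to 3682 CPM, and had 7 higher, 1 lower and a median change of 0.38. Their changes ran from -0.76 (NYX, not called) to 1.11 (GRM6). The bipolar median was 0.17 without fresh-frozen replicate 1, and 2 bipolar markers fell without that library or replicate 3 of either group. Of 9 cone markers, 1 rose and 2 fell, with a median of 0.11 that ran from -0.18 to 0.21 without single libraries, and with changes between -1.25 (RXRG) and 0.73 (CNGB3). Only 1 cone marker fell once any of PFA-fixed replicates 1 to 3, or replicate 3 or 4 of the fresh-frozen group, was left out. Among cells without ribbons, directions differed. Of 7 measured amacrine markers, 4 rose and 2 fell (median 0.31). Of 5 measured horizontal cell markers, 1 rose and 2 fell (median -0.19), with 0 to 2 falls when 1 library was left out. Of 7 Müller glia markers 5 fell (median -1.12), and of 7 ganglion cell markers 4 fell and 1 rose (median -0.64). Leaving out replicate 3 of either group reduced the ganglion cell falls to 2. The part of these cells in the changes of the synaptic genes was not tested. The changes of CACNA1F (1.57) and UNC13B (1.21) lay above the ranges of the listed rod, bipolar and cone markers, and that of CABP4 (1.11) lay only just above them. These ranges hold for the listed markers only. Outside the marker lists, RGS11 of ON bipolar cells rose by 2.31 and MPP4 of photoreceptor terminals by 1.51, while LRIT1 of photoreceptor synapses fell by 0.54.

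With libraries centred on their mean rod marker level, 5 of the 8 genes were called higher and 2 lower, against 21.0% of all genes called higher and 47.2% called lower under this scaling. The median change of all genes was then -0.28. CACNA1F was still higher by 1.31 ± 0.07, UNC13B by 0.94 ± 0.07 and CABP4 by 0.85 ± 0.10 on the log2 scale (SE). RIMS2 was higher by 0.50 and UNC13A by 0.61 (limma adjusted p = 6.89e-05 and 0.0155). BSN differed by 0.19 and was not called (limma adjusted p = 0.139). CTBP2 fell by 0.31 and RIMS1 by 0.62 (limma adjusted p = 0.00544 and 0.000712). Centring on the bipolar markers gave nearly the same values, with CACNA1F at 1.30, RIMS2 at 0.49, CTBP2 at -0.32 and RIMS1 at -0.62. Quantile normalization left 6 genes higher and also called CTBP2 (-0.22) and RIMS1 (-0.41) lower, where 38.0% of all genes were called higher and 31.3% lower.

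**Figure D3:**
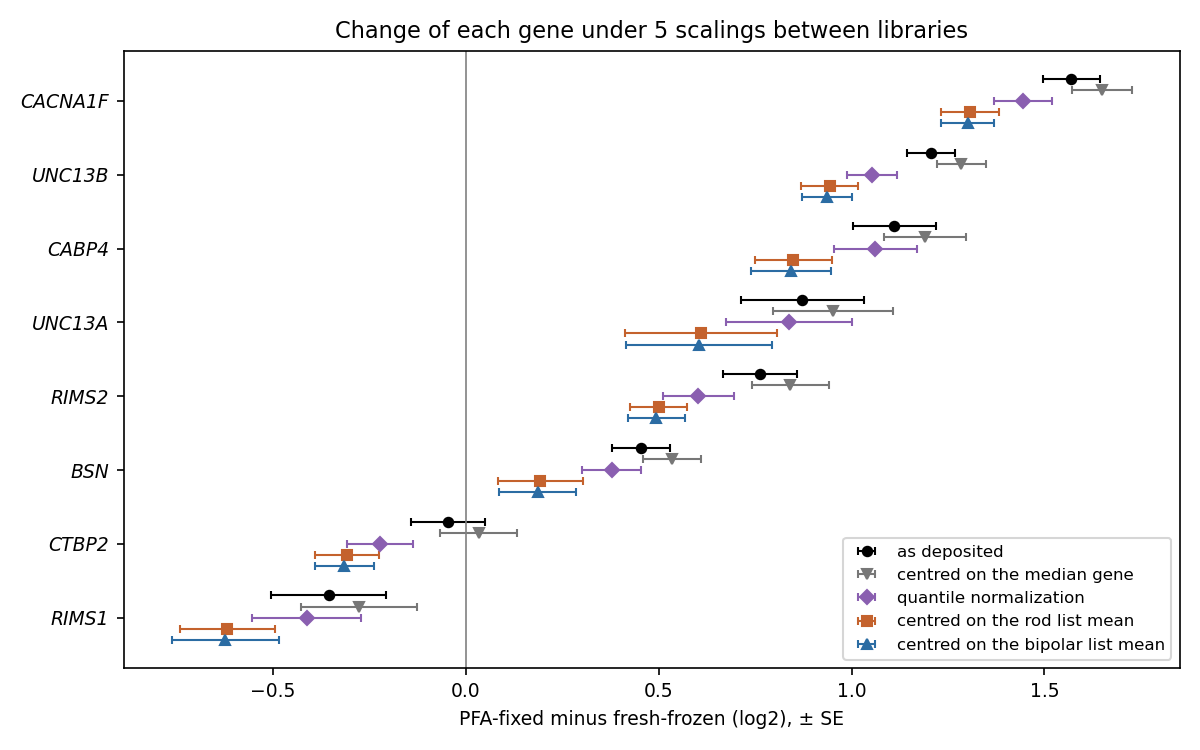
Change of each gene on the log2 scale (horizontal axis, PFA-fixed minus fresh-frozen, ± SE) with the deposited values and with 4 other scalings between libraries. CACNA1F, UNC13B, CABP4, UNC13A and RIMS2 lie to the right of 0 under all 5, and CTBP2 changes side between the deposited values (-0.05) and centring on the median gene (0.033).

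Other genes of the release site were taken from lists by role. Their counts with the deposited values are to be read against the 33.9% of all genes called higher and 34.7% called lower. Those with the rod scaling are to be read against 21.0% called higher and 47.2% called lower. Of 13 measured genes for other voltage-gated calcium channel subunits, 8 rose and none fell, with a median change of 0.64. With the rod scaling, 6 rose and 1 fell. The neuronal channel genes CACNA1E and CACNA1D rose by 1.65 and 1.10. CACNA2D2, which encodes an auxiliary subunit, differed by 0.14 (limma adjusted p = 0.236). CACNB2, an auxiliary subunit of the photoreceptor channel that was singled out after its values were seen, rose by 0.94 ± 0.10 (SE; limma adjusted p = 4.33e-06).

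Of 19 measured genes for other active zone scaffold proteins, 12 rose and 2 fell, with a median change of 0.46 (1 fell without replicate 3 of either group or PFA-fixed replicate 2). The median was 0.19 with the rod scaling, where 8 rose and 6 fell. MPP4, a scaffold of photoreceptor terminals, rose by 1.51, and RIMBP2, which links RIM proteins to calcium channels, rose by 1.40. RIMS4, a short RIM relative, fell by 0.73, and the adaptor gene APBA1 fell by 0.42. UNC119, abundant in photoreceptors, differed by -0.12 and was not called (limma adjusted p = 0.137).

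Of 20 measured SNARE and fusion genes, 6 rose and 4 fell, where 33.9% of all genes were called higher and 34.7% lower. Their median change of 0.15 turned to -0.11 with the rod scaling (5 higher, 5 lower). Without fresh-frozen replicate 3, 10 rose and 4 fell, with a median of 0.24. The median was 0.082 without fresh-frozen replicate 2 and 0.087 without PFA-fixed replicate 4. The vesicle SNARE gene VAMP2 rose by 1.09 and SNAP23 by 1.04. The calcium sensor gene SYT1 rose by 0.77, whereas its relative SYT2 fell by 0.68. The target SNARE genes STX4 and SNAP25 fell by 0.66 and 0.37.

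In a list of genes from both sides of the photoreceptor synapse and its cleft, 10 of 18 rose and 2 fell, with a median change of 0.32. The median was 0.06 with the rod scaling, where 6 rose and 4 fell. This list shares 4 genes with the bipolar markers. RGS11, a regulator of the G protein in ON bipolar cells, rose by 2.31, and DMD, which encodes dystrophin, rose by 1.35. The dystroglycan gene DAG1 fell by 0.76, and LRIT1, a leucine-rich repeat gene of photoreceptor synapses, fell by 0.54.

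CABP4 was compared with other genes for calcium-binding proteins. Of 9 measured, 2 rose and 2 fell, with a median change of -0.04, which was 0.044 when libraries were centred on the median gene. Leaving out PFA-fixed replicate 1 or fresh-frozen replicate 4 left 1 fall, and the median was 0.0059 without the former. With the rod scaling, none rose and 6 fell. CABP5, expressed in bipolar cells, rose by 0.40, and the guanylate cyclase activator gene GUCA1A rose by 0.35. CABP1 fell by 0.46, and the calmodulin gene CALM2, whose reads can be shared with near-identical copies, fell by 0.56.

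**Figure D4:**
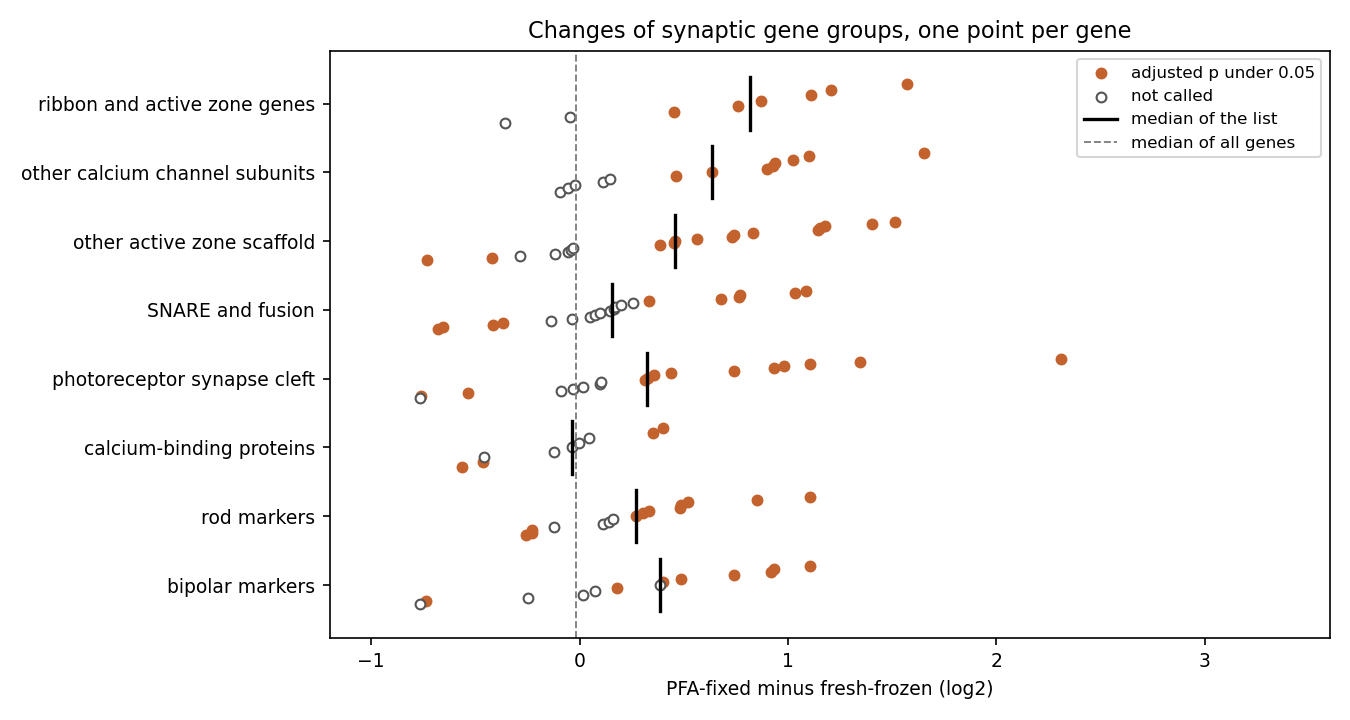
Change of each gene on the log2 scale (horizontal axis, PFA-fixed minus fresh-frozen) in the ribbon and active zone genes, 5 related lists and 2 marker lists. Filled points passed the threshold, open points did not, black bars are list medians and the dashed line is the median of all genes. The ribbon and active zone genes have a median of 0.82, the calcium-binding protein genes one of -0.04.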

How the data were processed

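Dog retina was profiled in 8 libraries (4 fresh-frozen, 4 PFA-fixed). The submitters' processing notes name the pseudo-aligner kallisto 0.48.0 beside edgeR and limma, without their roles. The reference transcripts, strand setting and any filter are not stated there. Deposited values are log2 CPM, scaled between libraries by the authors, with 1 column per library.

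Values of up to 20 reads lay on a comb whose spacing, searched from 0.03 to 0.15 CPM, gave depths of 21650000 to 22790000 reads (fresh-frozen) and 11040000 to 15410000 reads (PFA-fixed). Only 61.0% to 68.8% of them were whole within 0.1 of a read, so no count test was run. Chance gives 20% for a spacing fixed in advance, but here the spacing was chosen to fit the same values. At these depths, counting error was at most 2.91% for any member and library and covers counting only.

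Limma 3.58.1 (R 4.3.3) with an intensity trend was fitted on the deposited log2 values of all 12824 genes, with the group as the only term and Benjamini-Hochberg adjustment at 0.05. The step was tested on simulated data with independent noise and few changed genes. Since 68.7% of all genes were called in the real data, that setting cannot show how reliable the calls are here. Differences within libraries were tested by exact permutation in Python 3.11.15. Of the planned pairs, those with CACNA2D4 or PCLO could not be computed.

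All members are named. From each list, genes were named from among the 2 called genes with the largest rise, the 2 with the largest fall and the 2 with the highest level, without naming all of these. Members and lists were chosen with earlier results of these data known. Alternatives were leaving out each library, a replicate block, 5 other scalings, a minimum mean of 3 log2 CPM, log2(CPM + 1) and limma without trend. Symbols were looked up in a RefSeq gene table (UU_Cfam_GSD_1.0), where 12495 of 12824 matched. No member overlapped another gene that has a row.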

Additional observations from a re-analysis of the deposited data

Results flagged for a closer look

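RIMS2 in PFA-fixed replicate 4 stood apart from its group, at 10.83 log2 CPM against 11.15 to 11.19 in the other 3 fixed libraries. The gap took up 0.882 of the group's range. It was the only such value among 22 groups of 4 tested for the 8 genes and 3 pairs, and chance alone flags about 1 group in 20. Without this library, the rise of RIMS2 was 0.85 on the log2 scale, against 0.76 with it.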

How the results depend on the processing

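CACNA1F, CABP4, RIMS2, UNC13A and UNC13B were called higher in all 17 alternative fits. BSN lost its call with the 3 marker scalings only. CTBP2, not called, ranged from -0.12 to 0.021 without single libraries, turning without fresh-frozen replicate 2, and turned to 0.033 with centring on the median gene. The number of all genes called was 8804, and 8338 to 8649 without single libraries. Rising genes made up 49.4% of calls as deposited, 30.8% with the rod mean (2697 higher, 6057 lower), 29.5% with the rod median (2522 higher, 6041 lower) and 30.7% with the bipolar mean (2762 higher, 6239 lower). Without single libraries, RIMS2 minus RIMS1 grew by 1.05 to 1.24 and CACNA1F minus CABP4 by 0.39 to 0.56. With quantile normalization they grew by 1.02 and 0.38 and did not pass.

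Same-numbered libraries were not treated as pairs, since no label says that the number marks a dog. Their deviations from group means correlated at 0.05, 0.15, -0.09 and 0.22 for replicate numbers 1 to 4, across genes. With 4 libraries per group, these correlations cannot decide whether same-numbered libraries came from one dog. Of the fresh-frozen libraries, 1 of 4 correlated best with its own number. With the replicate block, 8799 genes were called, and RIMS1 was called lower (-0.36, limma adjusted p = 0.0199). With the block, the pair differences of 1.12 (RIMS2 minus RIMS1) and 0.46 (CACNA1F minus CABP4) did not pass, since the smallest exact p of 16 sign assignments is 0.125.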
